A study of Mus musculus with 1012 samples.

Results

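Toll-like receptors and the proteins that present lipopolysaccharide (LPS) to them were followed across mouse macrophages and stromal cells. The set was a named list of 10 genes, of 30452 features in the count table. It holds 4 surface receptors that act on the plasma membrane (Tlr1, Tlr2, Tlr4, Tlr6), the endosomal receptors Tlr7 and Tlr9, the LPS co-receptors Cd14 and Ly96 (also called MD-2), and the adaptors Myd88 and Ticam1 (also called TRIF). All 10 were found in the table. All 10 passed the filter on low counts when macrophages were compared with stromal cells, in either technique, and 7 of 10 passed it when LPS was compared with mock in Live-seq.

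Toll-like receptors are membrane proteins that bind conserved parts of microbes. LPS, a component of the outer membrane of Gram-negative bacteria, is handed by CD14 to the complex of MD-2 and TLR4. TLR2 pairs with TLR1 or TLR6 to bind bacterial lipopeptides, whereas TLR7 and TLR9 sit in endosomes and bind single-stranded RNA and unmethylated CpG DNA. The adaptor MyD88 carries the signal of nearly all these receptors to NF-kappaB, and TRIF carries that of endocytosed TLR4 (and of TLR3) to interferon regulatory factors. Macrophages are the classical cells of this system, and fibroblastic cells of fat are also known to carry TLR4.

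The data are 1012 libraries, each from 1 cell. Live-seq libraries were made from cytoplasm drawn out of a living cell with a hollow microcantilever, and scRNA-seq libraries from whole sorted cells by Smart-seq2. RAW_Mock and RAW_LPS are cells of RAW-G9, a single clone of the mouse macrophage line RAW264.7 that carries mCherry under the Tnf promoter and an EGFP-Rela fusion. RAW_LPS cells had received LPS and RAW_Mock cells had not. In Live-seq the LPS-treated cells were sampled after 4 to 5 h, and the LPS dose differs between the sources. One Live-seq batch, 5Reseq, held wild-type RAW264.7 cells instead, 11 of them RAW_LPS and 1 RAW_Mock. IBA cells are immortalized brown preadipocytes that derive from stromal cells of the interscapular brown fat of young male C57BL6/J mice. ASPC_Pre cells are primary adipose stem and progenitor cells from subcutaneous fat of female C57BL/6J mice aged 7 to 10 weeks. ASPC_Post cells are the same progenitors after 2 days in a cocktail of dexamethasone, IBMX, insulin and rosiglitazone. A further 162 IBA cells of batch 8_1 were sequenced whole, 70 without Live-seq, 49 at 1 h and 43 at 4 h after it.

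Of the whole cells, batches 8_8, 9_1 and scRNA held 16, 46 and 95 RAW_Mock cells, 15, 46 and 88 RAW_LPS cells and 15, 45 and 93 IBA cells. ASPC_Pre cells numbered 16 in 8_8 and 44 in 9_1, and 35 ASPC_Post cells were in 9_1. In Live-seq, batches 6, 7, 8_8 and 9_4 held 8, 20, 63 and 12 RAW_Mock biopsies of RAW-G9 and 4, 16, 9 and 10 of RAW_LPS, and there were 44 IBA, 61 ASPC_Pre and 37 ASPC_Post biopsies. Total counts per cell ran from 38451 to 2671609, with medians per state between 396776 and 741774. Cells were summed by batch and state where at least 3 were present, and each sum was a replicate, so that p-values measure the spread between batches of cells. All levels are given in CPM, the count of a gene scaled to the total of such a sum. The 10 macrophage markers (such as Lyz2, Csf1r and Ptprc) together reached 7646 to 9647 CPM in scRNA-seq RAW_Mock and 48.5 to 48.6 CPM in ASPC_Pre. The 8 mesenchymal markers (such as Col1a1 and Dcn) together reached 0.274 to 5.63 CPM in RAW cells and 5042 to 14068 CPM in IBA. Markers of endothelial cells (at most 5.59 CPM in sum), lymphocytes (1.17) and adipocytes (0.553) were nearly absent from every state. Granulocyte markers lay at 24.1 to 66.8 CPM in the RAW_Mock sums of scRNA-seq and at 12.5 to 27.6 CPM in its RAW_LPS sums. In Live-seq they ran from 0 to 204.4 CPM in RAW_Mock and from 0 to 52.8 CPM in RAW_LPS. Tnf, a textbook target of LPS, lay at 79.9 to 335.5 CPM in the 3 RAW_Mock sums and at 1471 to 2502 CPM in the 3 RAW_LPS sums.

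A single scRNA-seq IBA cell of batch 9_1 went against its label. It carried 10 of 10 macrophage markers at 31019 CPM in sum, against at most 120.3 CPM in any other IBA cell, and 0 of 8 mesenchymal markers. This cell alone held 52.8% of the Cd14 counts and 90.1% of the Tlr7 counts of the IBA cells in batch 9_1. It held 9.79% of the Myd88 and 2.15% of the Tlr2 counts, and none of those of Tlr1, Tlr4, Tlr6, Tlr9, Ly96 or Ticam1. Results that rest on IBA cells are given with it and, where it moves a value, without it.

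Positions are those of GENCODE vM21 on GRCm38, the build of the alignment. Tlr1 (ENSMUSG00000044827, chr5:64924679-64933563, minus strand) and Tlr6 (ENSMUSG00000051498, chr5:64952031-64960097, minus strand) are neighbours that share sequence. Of the 75-base stretches of the Tlr1 exons, 10.6% also occur in other genes, mostly Tlr6, and 9.25% of those of Tlr6 occur in Tlr1. Reads within these stretches were left out by the authors as not unique, so both genes may be undercounted. Tlr2 (ENSMUSG00000027995) lies at chr3:83836272-83841767 on the minus strand, and Tlr4 (ENSMUSG00000039005) at chr4:66827584-66930284 on the plus strand. The endosomal receptors are Tlr7 (ENSMUSG00000044583, chrX:167304929-167330558, minus strand) and Tlr9 (ENSMUSG00000045322, chr9:106222598-106226883, plus strand). Ly96 (ENSMUSG00000025779) is at chr1:16688051-16709611 on the plus strand, and Cd14 (ENSMUSG00000051439) at chr18:36725067-36726798 on the minus strand. Ticam1 (ENSMUSG00000047123) is at chr17:56269319-56276786 on the minus strand. Myd88 (ENSMUSG00000032508, chr9:119335934-119341411, minus strand) shares 290 bp, 11.3% of its exon length, with Acaa1a, and since counting ignored strand, reads there cannot be assigned to either gene.

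Whether macrophages and stromal cells differ in these genes was asked first in untreated whole cells. The contrast was between untreated states, but the fit held all 12 sums, those of RAW_LPS and ASPC_Post included. The treated sums therefore also entered its estimates of spread and batch. In scRNA-seq, Cd14, Tlr2, Tlr7 and Tlr9 were called higher in RAW_Mock than in the mean of IBA and ASPC_Pre, and Tlr1 and Ticam1 were called lower. Tlr4, Tlr6, Ly96 and Myd88 were not called. A call was an adjusted p under 0.05 in edgeR's quasi-likelihood test together with a log2 fold change beyond 1 in size. By this rule 38.2% of the 13561 genes tested were called, 14.5% higher and 23.7% lower, against 4 and 2 of the 10. Of these, Tlr7 and Tlr9 could pass the filter on low counts only through RAW cells, where they are high. The median log2 fold change was 0.99 over the 10 genes and -0.12 over all genes tested.

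Cd14, the co-receptor that collects LPS at the surface, stood at 447.7, 1401 and 1213 CPM in the RAW_Mock sums of batches 8_8, 9_1 and scRNA. The IBA sums of the same batches held 16.5, 42.4 and 4.03 CPM, and the ASPC_Pre sums of 8_8 and 9_1 held 2.67 and 6.45 CPM. Every macrophage sum was above every stromal sum, although within a sum fewer cells with the gene and less RNA per cell cannot be told apart. Within batches RAW_Mock was 27.2 to 300.8 times IBA. The log2 fold change was 6.79 ± 0.61 (SE, adjusted p = 4.05e-05, edgeR). Without the IBA cell that carried macrophage markers, Cd14 in the IBA sum of batch 9_1 was 20.4 instead of 42.4 CPM, and the log2 fold change was 6.98.

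Ly96, the MD-2 subunit without which TLR4 does not bind LPS, was not higher in macrophages. Its levels were 2.77, 7.71 and 6.41 CPM in RAW_Mock, 6.04, 12.8 and 6.14 CPM in IBA, and 8.27 and 7.40 CPM in ASPC_Pre. The groups overlapped, and the log2 fold change of -0.63 ± 0.51 did not pass (adjusted p = 0.345, edgeR). Tlr4, the signalling receptor itself, showed 15.02, 47.7 and 81.5 CPM in RAW_Mock, 6.88, 5.34 and 17.8 CPM in IBA, and 37.0 and 33.3 CPM in ASPC_Pre. Both progenitor sums lay inside the macrophage range, and 2 of the 3 IBA sums lay below it. In each of 3 batches Tlr4 was higher in RAW_Mock than in IBA, by 2.18 to 8.93 times, whereas against ASPC_Pre it was higher in 1 of 2 batches. The log2 fold change of Tlr4 against the mean of both was 0.88 ± 0.47 (adjusted p = 0.158, edgeR), and with every cell thinned to 50000 counts it was 1.44 and called (adjusted p = 0.0321).

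**Figure D1:**
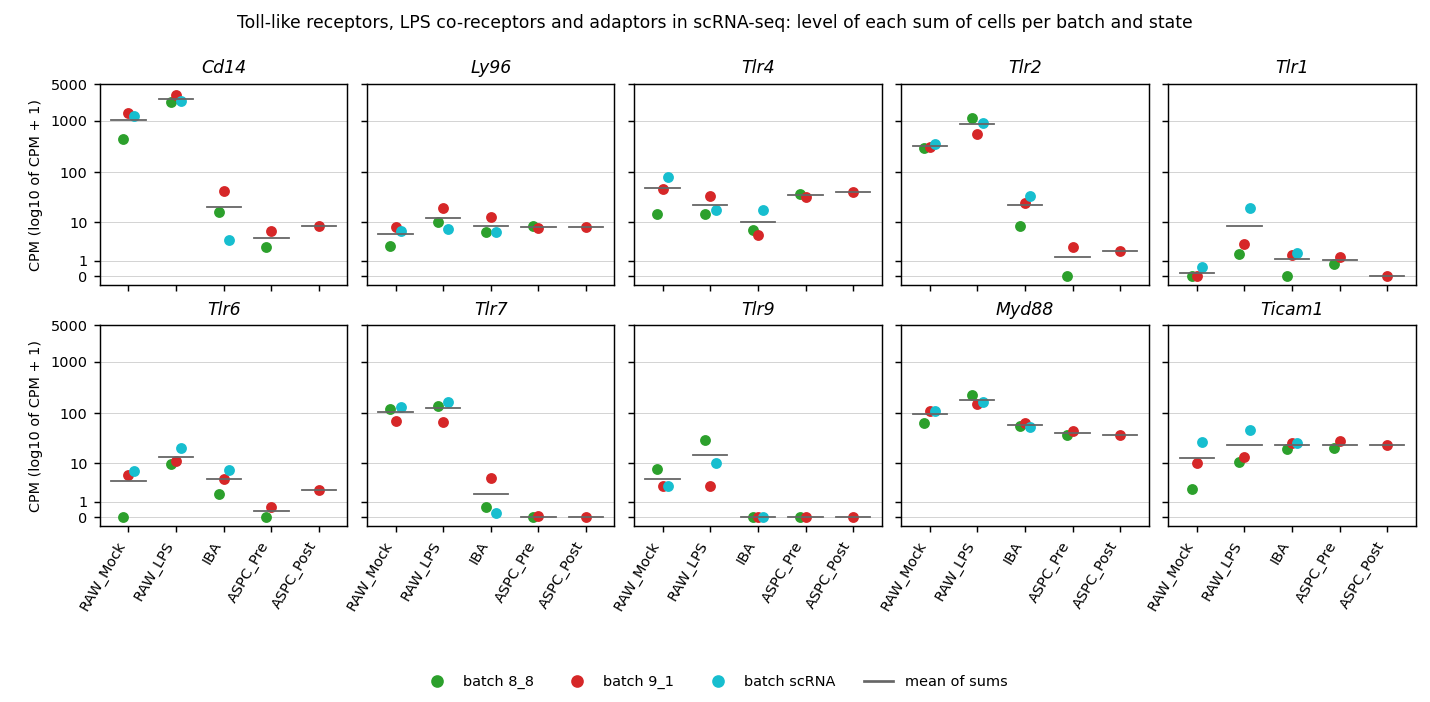
Level of each of the 10 genes in scRNA-seq, in CPM on an axis of log10(CPM + 1). Each point is the sum of the cells of 1 batch and state, coloured by batch, and the bar is the mean of the sums; Cd14, Tlr2 and Tlr7 stand high in RAW_Mock and RAW_LPS and low in IBA, ASPC_Pre and ASPC_Post, while Ly96, Tlr4 and Ticam1 overlap between them.

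Tlr2, the receptor for lipopeptides, varied little between macrophage batches. The RAW_Mock sums held 300.1, 312.1 and 346.01 CPM, the IBA sums 8.13, 25.2 and 34.5 CPM and the ASPC_Pre sums 0 and 2.67 CPM. No stromal sum reached the macrophage levels, and IBA was in turn above ASPC_Pre in both shared batches. The log2 fold change against the mean of the stromal states was 5.52 ± 0.60 (adjusted p = 0.000121, edgeR).

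Its partners Tlr1 and Tlr6 were scarce. Tlr1 had 0, 0 and 0.495 CPM in RAW_Mock, 0, 1.59 and 1.77 CPM in IBA and 0.730 and 1.32 CPM in ASPC_Pre, so that resting macrophages were at or near 0. The call for Tlr1, lower by a log2 fold change of -4.21 ± 1.31 (adjusted p = 0.0267, edgeR), rests on 17 counts in all RAW_Mock cells together. It was lost in 5 of 11 alternatives, among them the thinned cells, where the log2 fold change was -0.77 (adjusted p = 0.891), and the removal of any of the 3 batches (adjusted p between 0.0564 and 0.11), and without the replicate block (-2.59, adjusted p = 0.176). Tlr6 had 0, 5.71 and 6.73 CPM in RAW_Mock, 1.88, 4.54 and 7.38 CPM in IBA and 0 and 0.617 CPM in ASPC_Pre. RAW_Mock and IBA overlapped throughout, and the log2 fold change of Tlr6 was 1.09 ± 0.88 (adjusted p = 0.344, edgeR).

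Tlr7, a receptor for single-stranded RNA, held 122.4, 71.8 and 131.6 CPM in RAW_Mock, 0.6253, 4.83 and 0.217 CPM in IBA and 0 and 0.0822 CPM in ASPC_Pre. The groups were far apart, with a log2 fold change of 8.21 ± 1.08 (adjusted p = 0.00034, edgeR), and of 8.91 without the IBA cell that carried macrophage markers, since the highest IBA value of 4.83 CPM then fell to 0.486 CPM. Tlr9, a receptor for CpG DNA, was lower in level, with 7.62, 3.05 and 3.09 CPM in RAW_Mock, 0 CPM in all 3 IBA sums and 0 and 0.0411 CPM in ASPC_Pre. Pooled over all cells, Tlr9 in RAW_Mock stood 77.2-fold above a floor of 3 counts for IBA, a ratio that is no lower bound for a batch. The test called Tlr9 higher (adjusted p = 0.00078, edgeR), at a fitted log2 fold change of 7.57 that depends on the prior count.

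The adaptors, which many cell types need, were measured in every state. Myd88 showed 65.6, 112.7 and 113.6 CPM in RAW_Mock, 56.3, 65.3 and 53.6 CPM in IBA and 38.7 and 44.9 CPM in ASPC_Pre. Each RAW_Mock sum was above each stromal sum, but only just for the lowest of them, and the log2 fold change of 0.83 ± 0.25 (adjusted p = 0.0216, edgeR) passed the p threshold and not the fold threshold. Ticam1 had 2.54, 9.98 and 26.9 CPM in RAW_Mock, 19.8, 25.8 and 25.8 CPM in IBA and 20.4 and 28.4 CPM in ASPC_Pre. It was lower in RAW_Mock than in ASPC_Pre in 2 of 2 batches and than in IBA in 2 of 3. The highest RAW_Mock sum, of batch scRNA, drew 67.9% of its Ticam1 counts from 1 cell. The log2 fold change of Ticam1 was -1.73 ± 0.51 (adjusted p = 0.0203, edgeR). That call was lost without batch 8_8 (-1.23, adjusted p = 0.102), without batch 9_1 (-1.77, adjusted p = 0.141) and without the replicate block (-1.02, adjusted p = 0.277).

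Counted over sums that did not overlap, 5 of the 10 genes (Tlr2, Tlr7, Tlr9, Cd14 and Myd88) were higher in every RAW_Mock sum than in every IBA and ASPC_Pre sum, and none was lower in every one. Over all genes tested, 15.6% were higher and 18.5% lower in this sense.

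Promoters were drawn from RefSeq on GRCm38.p6, where 6 of the 10 genes had one; Tlr4, Tlr7, Ly96 and Cd14 had none. Those of Tlr2 and Tlr9, receptors called higher in macrophages, and of Tlr1 and Myd88 are given as 300 bases around the start site, 5′ to 3′ on the strand of the gene, with motif matches in capitals. The motifs searched on both strands were GGGNNTTCC (kappaB type), GAGGAAG (PU.1/ETS type), GAAANNGAA (interferon response type) and TGACTCA (AP-1 type). Among 32851 promoters of the same length they occur in 5.82%, 13.6%, 8.56% and 5.203%. Positions are counted from the start site, with negative numbers upstream.
Tlr2: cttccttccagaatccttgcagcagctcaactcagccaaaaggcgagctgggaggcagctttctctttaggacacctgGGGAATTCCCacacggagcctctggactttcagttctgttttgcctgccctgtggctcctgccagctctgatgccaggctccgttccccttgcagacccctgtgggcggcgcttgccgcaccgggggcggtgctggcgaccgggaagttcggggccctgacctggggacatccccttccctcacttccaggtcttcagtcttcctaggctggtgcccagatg
Tlr9: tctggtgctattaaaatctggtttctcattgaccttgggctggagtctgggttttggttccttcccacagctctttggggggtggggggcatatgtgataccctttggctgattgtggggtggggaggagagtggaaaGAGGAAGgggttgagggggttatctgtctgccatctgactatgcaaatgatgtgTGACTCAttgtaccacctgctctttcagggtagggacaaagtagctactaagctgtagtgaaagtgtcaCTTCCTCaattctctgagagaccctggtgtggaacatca
Tlr1: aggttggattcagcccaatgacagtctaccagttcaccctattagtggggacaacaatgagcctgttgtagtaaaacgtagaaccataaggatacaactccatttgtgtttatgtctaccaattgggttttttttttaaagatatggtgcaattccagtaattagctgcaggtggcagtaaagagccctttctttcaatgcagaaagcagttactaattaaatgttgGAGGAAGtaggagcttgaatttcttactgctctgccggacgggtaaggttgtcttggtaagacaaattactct
Myd88: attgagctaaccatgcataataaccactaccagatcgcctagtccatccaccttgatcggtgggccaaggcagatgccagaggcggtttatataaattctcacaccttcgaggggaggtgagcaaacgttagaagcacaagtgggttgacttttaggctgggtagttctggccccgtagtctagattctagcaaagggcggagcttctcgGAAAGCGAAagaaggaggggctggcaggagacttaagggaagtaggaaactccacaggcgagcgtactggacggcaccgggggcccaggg

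The Tlr2 window (chr3:83841559-83841858, minus strand) holds the kappaB letters on both strands, overlapping each other at -172 and -171. The Tlr9 window (chr9:106222348-106222647, plus strand) holds the PU.1/ETS letters at -112 and, on the other strand, at 11, and the AP-1 letters at -58. The Tlr1 window (chr5:64933509-64933808, minus strand), the first of the gene's start sites in RefSeq, holds the PU.1/ETS letters at -23, and the Myd88 window (chr9:119339969-119340268, minus strand) the interferon response letters at -40. Of the promoters not printed, the first of Tlr6 held the interferon response letters at -115 and -109, and that of Ticam1 the PU.1/ETS letters at -30. These are matches of letters and were not tested as binding sites.

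Levels between genes were compared per kb of exon. In scRNA-seq RAW_Mock, the mean was 589.2 CPM per kb for Cd14, 105.97 for Tlr2, 37.8 for Myd88 and 26.6 for Tlr7. Below them came 8.65 CPM per kb for Tlr4, 5.51 for Ly96 and 4.39 for Ticam1, and then 1.32 for Tlr9, 1.11 for Tlr6 and 0.0493 for Tlr1. Neighbours such as Tlr4, Ly96 and Ticam1, or Tlr9 and Tlr6, did not differ beyond the spread of their sums. In ASPC_Pre the order was another one, with Myd88 at 16.2 CPM per kb, Ticam1 at 8.17, Ly96 at 7.67 and Tlr4 at 6.32, all above Cd14 at 2.64.

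The same contrast was then made in Live-seq, where the spread between sums was much larger (edgeR common dispersion 1.501, against 0.183 in scRNA-seq). This fit held 15 sums, again with those of RAW_LPS and ASPC_Post. By edgeR, Cd14 and Tlr2 were called higher in RAW_Mock and no gene of the 10 was called lower. Of 13461 genes tested, 2.88% were called, 1.26% higher and 1.63% lower. The median log2 fold change of the 10 was 2.69, against -0.12 over all genes.

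Cd14 held 546.7, 960.05, 1139.7 and 1658 CPM in the RAW_Mock biopsies of batches 6, 7, 8_8 and 9_4. The biopsies of IBA cells gave 25.4, 0 and 8.53 CPM (batches 7, 8_8 and 9_4), and those of ASPC_Pre 0 and 6.92 CPM (8_8 and 9_4). The groups did not overlap, and the log2 fold change was 8.12 ± 1.33 (adjusted p = 0.00649, edgeR), which was no longer called without batch 9_4 (11.27, adjusted p = 0.0887). Tlr2 held 1082, 158.5, 293.4 and 416.2 CPM in RAW_Mock, 86.0, 45.3 and 39.4 CPM in IBA, and 0 and 0.566 CPM in ASPC_Pre. Here too all macrophage sums were the higher ones, with a log2 fold change of 5.79 ± 0.79 (adjusted p = 0.00214, edgeR) that was not called without batch 8_8 (5.39, adjusted p = 0.117).

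Tlr7 had 7.03, 14.8, 64.9 and 51.7 CPM in RAW_Mock biopsies, 0, 1.16 and 0 CPM in IBA and 0 CPM in both ASPC_Pre sums. All macrophage sums were again above all stromal ones. Pooled over all biopsies, Tlr7 in RAW_Mock stood 316.9-fold above a floor of 3 counts for ASPC_Pre, which is no lower bound for a batch either. The fitted log2 fold change of 9.46 missed the threshold (adjusted p = 0.0532, edgeR). Tlr7 was called in 5 of 12 alternatives, among them the fit without the replicate block (adjusted p = 0.0258). The remaining receptors and adaptors overlapped between the groups. Tlr4 ranged from 1.28 to 286.6 CPM in RAW_Mock biopsies and from 0 to 22.2 CPM in the stromal ones (log2 fold change 3.70 ± 1.73, adjusted p = 0.334, edgeR), and was called higher by DESeq2 (3.57, adjusted p = 0.0435). Myd88 lay at 63.6 to 184.1 CPM in RAW_Mock and 36.9 to 74.4 CPM in stromal biopsies (adjusted p = 0.891, edgeR). Ly96 lay at 0 to 5.199 CPM in RAW_Mock and 0 to 11.7 CPM in stromal biopsies, and Ticam1 at 0 to 4.15 and 0 to 20.2 CPM (adjusted p = 0.974 and 0.626, edgeR). Tlr6 was above 1 CPM in 1 RAW_Mock sum (15.2 CPM) and Tlr9 had counts in the same 1 (2.38 CPM), with adjusted p of 0.875 and 0.624 (edgeR). Tlr1 had no count in any RAW_Mock sum and 0 to 4.49 CPM in the stromal ones. It was not called by edgeR (adjusted p = 0.387) and was called lower by DESeq2 (adjusted p = 7.25e-11), whose fitted fold against a group at 0 is no estimate of size. Non-overlapping sums were found for 3 of the 10 (Tlr2, Tlr7 and Cd14, all higher), against 4.09% higher and 7.45% lower over all genes.

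**Figure D2:**
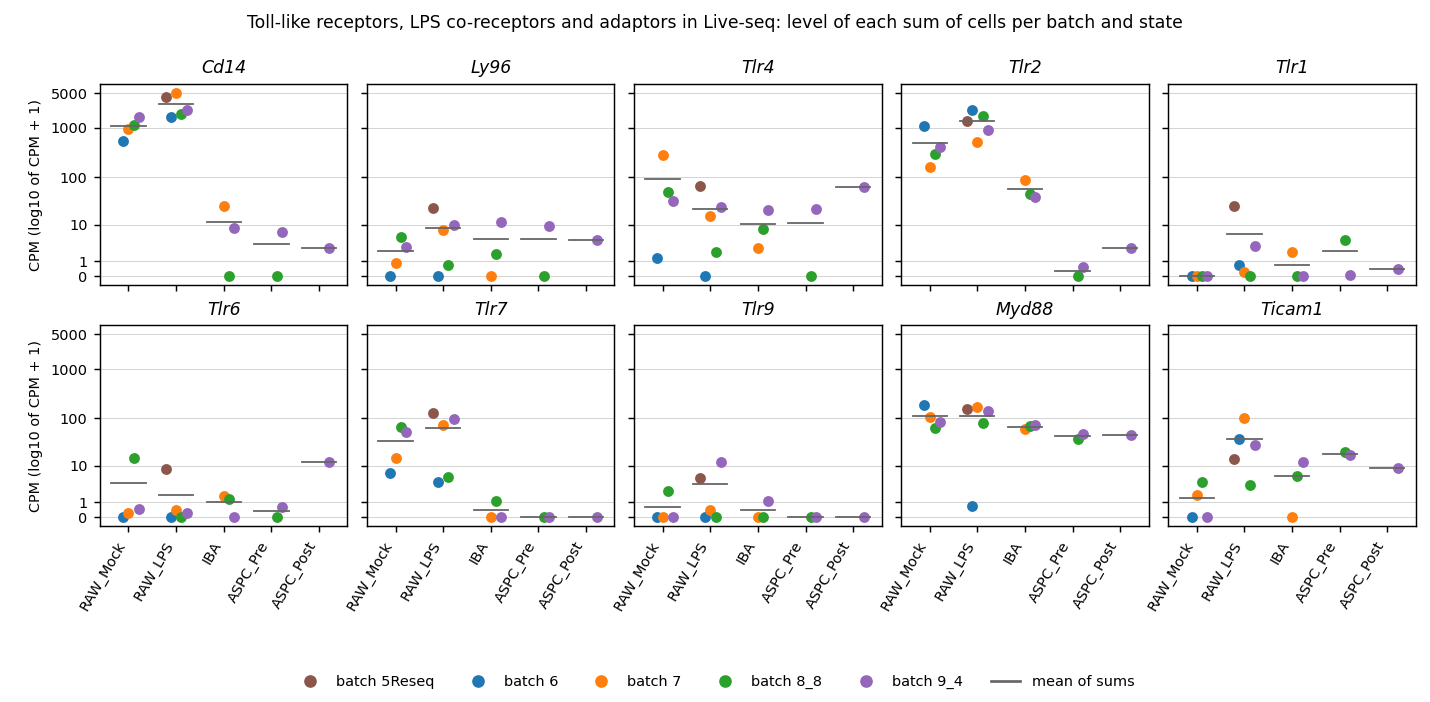
Level of each of the 10 genes in Live-seq, in CPM on an axis of log10(CPM + 1). Points are sums of the biopsies of 1 batch and state, coloured by batch, and bars are means; Cd14 and Tlr2 separate RAW cells from stromal cells, while Tlr4, Ly96 and Ticam1 range from 0 or near 0 upwards within a state.

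Response to LPS was compared within RAW cells. In scRNA-seq, Cd14, Tlr2 and Tlr1 rose after LPS and no gene of the 10 fell. Of 11675 genes tested, 4.37% were called, 2.67% as higher and 1.7% as lower, against 3 and 0 of the 10. Tlr1 is among the 3, although too few RAW_Mock cells held it for the filter on low counts. Among RAW cells it could pass only through RAW_LPS, where it is high, so its call is no independent support. The median log2 fold change of the 10 was 1.31, against -0.01 over all genes, and 9 of 10 values were positive, Tlr4 being the exception.

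Cd14 went from 447.7 to 2302 CPM in batch 8_8, from 1401 to 3038 CPM in 9_1 and from 1213 to 2373 CPM in scRNA. The lowest LPS sum was above the highest mock sum, a rise of 1.61 ± 0.28 on the log2 scale (adjusted p = 0.0325, edgeR), lost without batch 9_1 (1.80, adjusted p = 0.101). Tlr2 went from 300.1 to 1125 CPM, from 312.1 to 550.8 CPM and from 346.01 to 907.97 CPM in the same batches. The sums did not overlap and the rise was 1.51 ± 0.22 (adjusted p = 0.021, edgeR). Tlr1 went from 0 to 1.70 CPM, from 0 to 3.16 CPM and from 0.495 to 19.6 CPM. It was higher in 3 of 3 batches, at a fitted log2 fold change of 6.18 that depends on the prior count (adjusted p = 0.0259, edgeR), and the call was lost without batch 9_1 (adjusted p = 0.112) and without batch scRNA (adjusted p = 0.216). With the sums of all 5 states in one fit, Cd14 (adjusted p = 0.231), Tlr2 (adjusted p = 0.240) and Tlr1 (adjusted p = 0.0679) were all not called, at log2 fold changes of 1.58, 1.63 and 6.07. Without the replicate block Tlr2 kept its call, whereas Cd14 (1.46, adjusted p = 0.125) and Tlr1 (5.39, adjusted p = 0.149) lost theirs.

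Tlr6 measured 0, 5.71 and 6.73 CPM in mock and 9.93, 11.1 and 20.8 CPM after LPS. Each LPS sum was above each mock sum, with a log2 fold change of 2.29 ± 0.94 that did not pass (adjusted p = 0.223, edgeR). Myd88 stood at 65.6, 112.7 and 113.6 CPM in mock and 226.7, 151.7 and 168.2 CPM after LPS, 1.35 to 3.45 times higher within batches and without overlap. Its log2 fold change of 1.05 ± 0.29 missed the threshold (adjusted p = 0.0966, edgeR) and was called in 3 of 11 alternatives. Ticam1 was 1.35 to 4.19 times higher within batches (2.54 to 10.7, 9.98 to 13.4 and 26.9 to 48.3 CPM), with overlapping ranges and an adjusted p of 0.164 (edgeR). DESeq2 called Tlr6 (2.51, adjusted p = 0.0194) and Ticam1 (1.18, adjusted p = 0.0484) as well.

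Tlr4 stood apart from the others. It measured 15.02, 47.7 and 81.5 CPM in mock and 14.5, 34.2 and 18.2 CPM after LPS in batches 8_8, 9_1 and scRNA. It was lower after LPS in 3 of 3 batches, by a factor between 0.223 and 0.968, the smallest change being in 8_8, and the ranges overlapped. The log2 fold change of -0.78 ± 0.45 did not pass (adjusted p = 0.369, edgeR). Ly96 was higher after LPS in 3 of 3 batches, at 9.93, 19.8 and 7.15 CPM against 2.77, 7.71 and 6.41 CPM (adjusted p = 0.222, edgeR). Tlr9 was higher in 3 of 3, at 30.8, 3.13 and 10.1 CPM against 7.62, 3.05 and 3.09 CPM, which in batch 9_1 was a ratio of 1.02 (adjusted p = 0.207, edgeR). Tlr7 was the steadiest of the macrophage receptors, with 138.03, 67.9 and 169.3 CPM after LPS against 122.4, 71.8 and 131.6 CPM in mock (log2 fold change 0.29 ± 0.17, adjusted p = 0.378, edgeR).

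Sums did not overlap for 5 of the 10 after LPS (Tlr1, Tlr2, Tlr6, Cd14 and Myd88, all higher), against 7.01% higher and 13.3% lower over all genes. Tlr1 enters this count under the limit of the filter given above. In Live-seq the same count was 0 of the 7 genes tested, against 0.955% and 1.89%.

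In Live-seq no gene in the whole table was called after LPS by edgeR (0.0% of 9738 tested). At an unadjusted p under 0.05 there were 2.88% of the genes, and DESeq2 called 2.57%. The lowest adjusted p of any gene was 0.256, and the median log2 fold change over all genes was itself -0.40. The spread between sums was wider than in whole cells (common dispersion 1.54 against 0.124), so a gene that was not called is not shown to be the same with and without LPS. Cd14 was nevertheless higher after LPS in 4 of 4 batches. It went from 546.7 to 1641 CPM in batch 6, from 960.05 to 4971 CPM in 7, from 1139.7 to 1884 CPM in 8_8 and from 1658 to 2318 CPM in 9_4 (log2 fold change 1.303 ± 0.40, adjusted p = 1, edgeR). Tlr2 was also higher in 4 of 4, from 1082 to 2337, from 158.5 to 507.1, from 293.4 to 1756 and from 416.2 to 910.1 CPM (1.65 ± 0.46, adjusted p = 1, edgeR). For both genes the highest mock sum was above the lowest LPS sum, so that the order held within batches and not across them.

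Tlr4 was lower after LPS in 4 of 4 Live-seq batches, from 1.28 to 0, from 286.6 to 15.4, from 49.7 to 2.10 and from 32.0 to 24.4 CPM. The LPS values of 7, 8_8 and 9_4 came almost wholly from 1 cell each, and the log2 fold change was -3.28 ± 1.55 (adjusted p = 1, edgeR). Myd88 was higher in 3 of 4 batches and went from 184.1 to 0.709 CPM in batch 6, whose LPS sum held 4 cells. Ticam1 was higher in 3 of 4, at 38.3, 101.8, 3.50 and 28.4 CPM against 0, 1.87, 4.15 and 0 CPM in batches 6, 7, 8_8 and 9_4, the exception being 8_8. These LPS values came from 1 to 3 cells each, with a single cell giving 100% of the counts in batch 6, 74.7% in 7 and 58.4% in 9_4. The fitted log2 fold change of Ticam1 was 6.26 ± 2.89 (adjusted p = 1, edgeR), and DESeq2 called it (6.41, adjusted p = 0.0118). Myd88, Ly96 and Tlr7 had fitted values of -0.22, 1.17 and -0.12 (adjusted p = 1 each, edgeR). Tlr1 had no count in any RAW_Mock biopsy and did not pass the filter. Pooled over all biopsies, RAW_LPS stood 71.4-fold above a floor of 3 counts for RAW_Mock. Of its counts, 134 came from the wild-type cells of batch 5Reseq. Without that batch 18 counts remained and the ratio was 10.9-fold. Of these 18 counts, 15 came from 1 cell of batch 9_4, and in batch 8_8 Tlr1 was at 0 in both states. The ratio is therefore no lower bound for a batch.

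**Figure D3:**
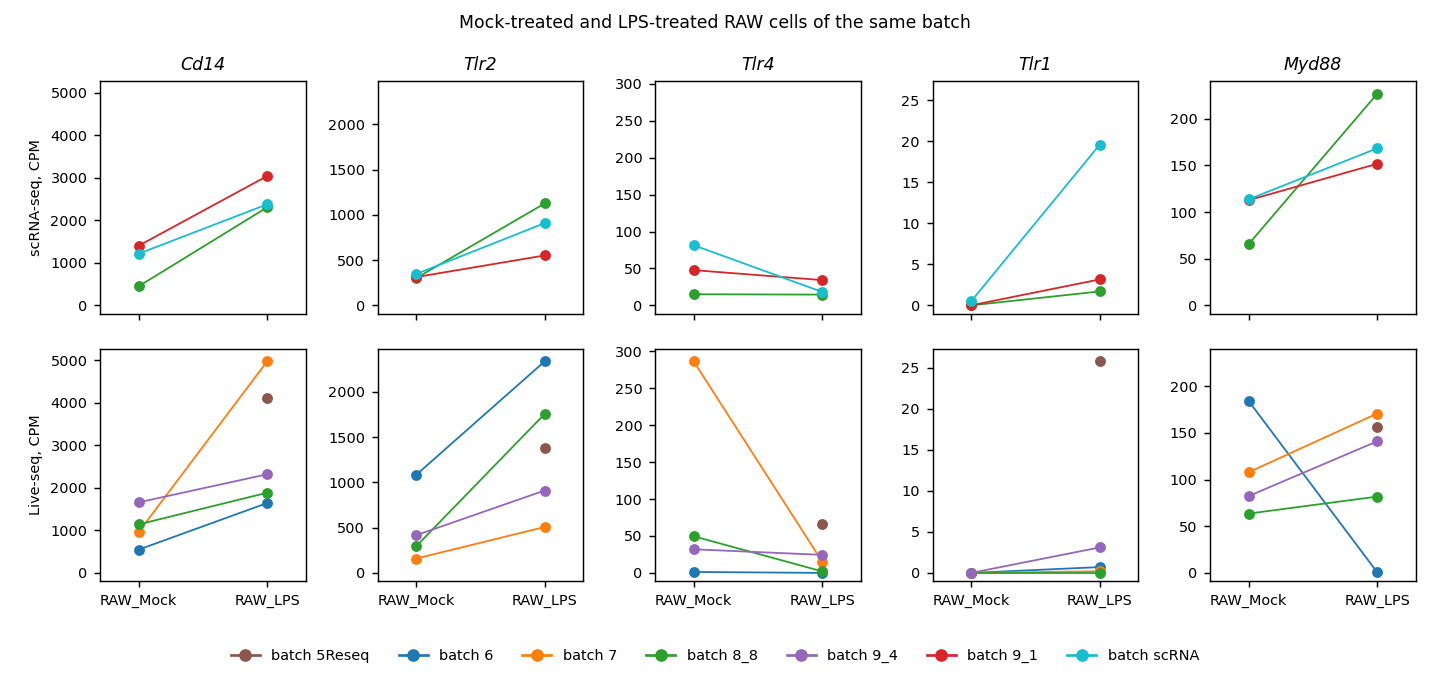
CPM of Cd14, Tlr2, Tlr4, Tlr1 and Myd88 in RAW_Mock and RAW_LPS sums, scRNA-seq above and Live-seq below. Lines join sums of the same batch, and the unjoined point is the wild-type batch 5Reseq; Cd14 and Tlr2 go up along every line and Tlr4 goes down along every line.

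A change called in one technique and not in the other is not a difference between them, and the difference itself was therefore tested. For no gene was the effect of LPS called different between Live-seq and scRNA-seq by edgeR (0.0% of 11553 genes, with 4.73% at an unadjusted p under 0.05 and 0.554% called by DESeq2). With the wide errors of this fit, a gene not called is not shown to respond alike in both. The difference was 0.15 ± 0.55 for Tlr2, -0.30 ± 0.55 for Cd14 and -2.45 ± 1.53 for Tlr4 on the log2 scale. It ran from -4.40 for Tlr6 to 4.79 for Ticam1 among the others, and the adjusted p was 1 for all 10. Levels in RAW cells were likewise not called different between biopsy and whole cell for any gene (0.0% of 11553, with 7.02% at an unadjusted p under 0.05 and 0.840% called by DESeq2). Tlr2 was 0.83 ± 0.41 higher in biopsies on the log2 scale (adjusted p = 0.796, edgeR) and Cd14 0.33 ± 0.34 (adjusted p = 1.00, edgeR). The other 8 genes lay between -2.20 (Tlr9) and 0.68 (Tlr4), with adjusted p of 0.982 or more (edgeR). In this comparison technique and batch cannot be told apart except in batch 8_8. The fit therefore had no batch term, and mock and LPS sums of a batch counted as separate replicates. The wild-type sum of batch 5Reseq was on the Live-seq side only, and without that batch Tlr1 was -3.59 instead of -2.18.

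**Figure D4:**
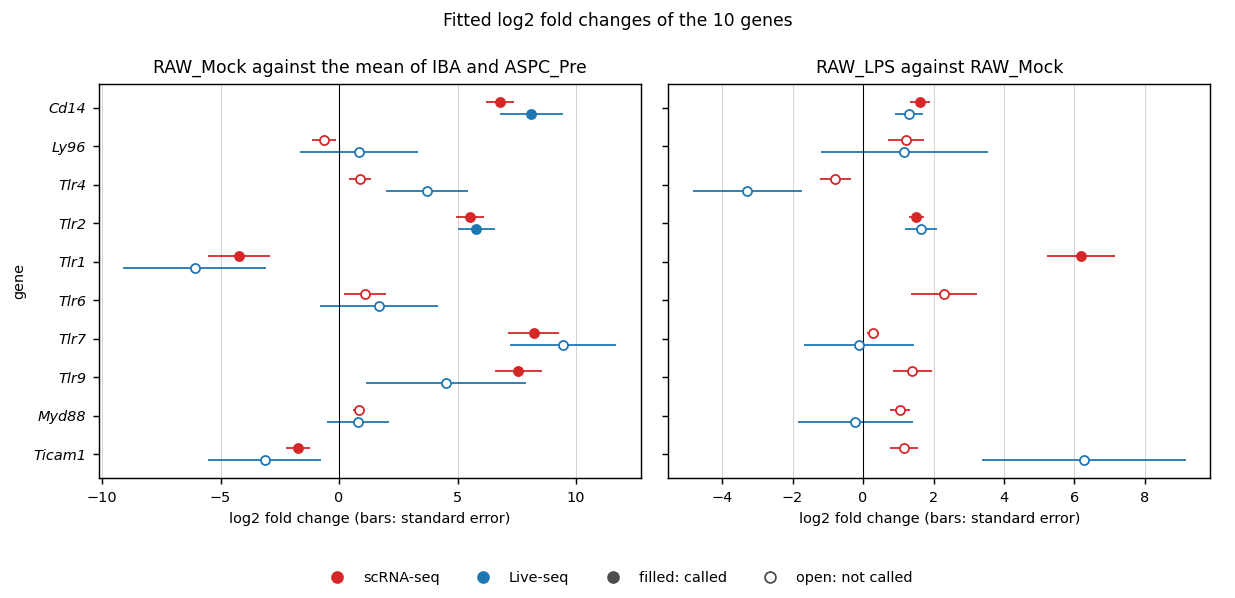
Fitted log2 fold changes of the 10 genes, RAW_Mock against the mean of IBA and ASPC_Pre on the left and RAW_LPS against RAW_Mock on the right. Red is scRNA-seq and blue Live-seq, bars are standard errors, and filled points were called by edgeR; in Live-seq only Cd14 and Tlr2 on the left are filled, and Tlr1, Tlr6 and Tlr9 are absent on the right because they did not pass the filter.

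The wild-type RAW264.7 cells of batch 5Reseq gave 4118 CPM of Cd14, 1383 of Tlr2, 66.6 of Tlr4, 25.8 of Tlr1, 8.47 of Tlr6 and 129.02 of Tlr7 after LPS. The 4 RAW-G9 sums after LPS lay at 1641 to 4971 CPM for Cd14 and 507.1 to 2337 CPM for Tlr2, around the wild-type values. They lay at 0 to 24.4 CPM for Tlr4, 0 to 3.11 for Tlr1, 0 to 0.403 for Tlr6 and 4.25 to 98.8 for Tlr7, all under the wild-type values. Ly96 was 23.1 CPM in the wild-type cells, above the 0 to 9.94 CPM of RAW-G9. Myd88 (156.8 CPM), Ticam1 (14.3 CPM) and Tlr9 (5.39 CPM) were within the RAW-G9 ranges. Line and batch cannot be told apart here.

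Live-seq also sampled 4 RAW cells both before and after LPS. Order was taken from the treatment labels, since in 1 pair the labels give both samples the same place in the order. Depth differed, with 122640 to 430091 counts before and 300706 to 729809 after LPS, so that a 0 before LPS may lie under what the shallower samples could show. Cd14 went from 257.1 to 2755, from 930 to 6107, from 1209 to 2867 and from 0 to 5686 CPM in these cells. Tlr2 went from 2.68 to 1013, from 0 to 703.5, from 130.2 to 641.8 and from 0 to 258.97 CPM. Both were higher after LPS in 4 of 4 cells, as was Tnf, which reached 1304 to 2693 CPM. Myd88 was at 0 in all 4 cells before and at 162.8, 836.3, 3.33 and 127.4 CPM after LPS. Ticam1 had no count in either sample of any of the 4, and Tlr4 was higher after LPS in 2, lower in 1 and at 0 in 1. Ly96 and Tlr7 were higher in 2 and at 0 in 2, and Tlr1, Tlr6 and Tlr9 had counts in 1 pair each. With 4 pairs the smallest p that a two-sided exact sign test can give is 0.125, so no test was made.

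**Figure D5:**
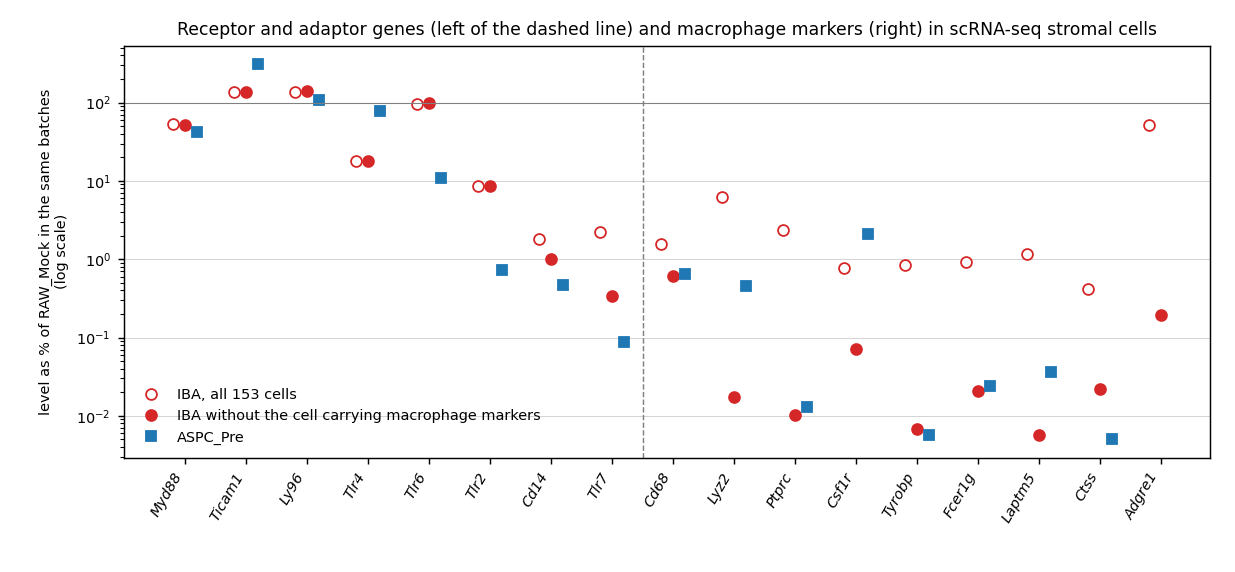
Level in scRNA-seq stromal cells as a percent of RAW_Mock in the same batches, on a log axis, for 8 of the 10 genes (left of the dashed line) and 9 macrophage markers (right). Open circles are all IBA cells, filled circles IBA without the cell that carried macrophage markers, and squares ASPC_Pre. Myd88 (51.5% in IBA without that cell), Ticam1, Ly96 and Tlr4 (17.97%) lie high, and most markers lie low; Itgam is not drawn.

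The low levels of the macrophage receptors in stromal cells were set beside those of macrophage markers, pooled over all cells of the batches with both states. Without the cell that carried macrophage markers, Tlr2 in IBA stood at 8.60% of its level in RAW_Mock and Cd14 at 0.998%. The markers Lyz2 (0.0173%), Ptprc (0.0102%), Tyrobp (0.00689%), Laptm5 (0.00572%) and Csf1r (0.0707%) were far lower, and Cd68 stood at 0.607%. Tlr7 stood at 0.343% of its macrophage level. Ly96 (138.8%), Ticam1 (138.4%) and Tlr6 (97.8%) were at the macrophage level or above, Myd88 was at 51.5% and Tlr4 at 17.97%. In ASPC_Pre, Cd14 was at 0.468%, Tlr2 at 0.736% and Tlr7 at 0.0888%, beside 2.07% for Csf1r, 0.644% for Cd68, 0.458% for Lyz2 and 0.0130% for Ptprc. Laptm5 (0.0362%), Fcer1g (0.0241%), Tyrobp (0.0057%) and Ctss (0.00508%) were far below Cd14 there. Itgam gives no usable share, being at 0 to 1.75 CPM in the RAW_Mock sums themselves, and Adgre1 was at 0.192% in IBA without that cell and 0 in ASPC_Pre. Tlr4 was at 78.7%, Ly96 at 107.6% and Ticam1 at 306.5% of RAW_Mock in ASPC_Pre. The part of macrophage RNA in these values was not tested.

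The stromal cell types differed from each other in 2 receptors. The fit was that of all 12 scRNA-seq sums, RAW cells and ASPC_Post included. Tlr2 was higher in IBA than in ASPC_Pre, at 8.13, 25.2 and 34.5 CPM against 0 and 2.67 CPM, with a log2 fold change of 3.24 ± 0.82 (adjusted p = 0.0373, edgeR). Tlr4 was lower in IBA, at 6.88, 5.34 and 17.8 CPM against 37.0 and 33.3 CPM, with a log2 fold change of -2.58 ± 0.62 (adjusted p = 0.0316, edgeR). Neither pair of groups overlapped, but the same held for Tlr6, Tlr7 and Myd88, which were not called. How many of all genes do not overlap here was not counted. Over all genes 10.9% were called, 3.75% higher and 7.19% lower in IBA, against 1 and 1 of the 10. The Tlr2 call was lost without batch 9_1 (adjusted p = 0.112) and without batch scRNA (adjusted p = 0.102), and the Tlr4 call without each of the 3 batches (adjusted p between 0.0627 and 0.163) and without the replicate block (-2.04, adjusted p = 0.0986).

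The other 8 genes were not called between IBA and ASPC_Pre by edgeR. DESeq2 called Cd14 (1.93, adjusted p = 0.0282) and Tlr7 (4.45, adjusted p = 0.0172) higher in IBA, and Cd14 was also called without batch scRNA (2.37, adjusted p = 0.0276). Cd14 had a log2 fold change of 1.92 ± 0.71 (adjusted p = 0.108, edgeR) with the cell that carried macrophage markers and 1.34 without it, and Tlr7 4.56 with it and 1.92 without. Myd88, Ly96 and Ticam1 had log2 fold changes of 0.21, -0.19 and -0.70. Tlr1, Tlr6 and Tlr9 had -1.31, 3.13 and -2.88 (adjusted p of 0.51, 0.146 and 0.298, edgeR). Live-seq biopsies, in which this contrast was not tested, gave Tlr2 at 86.0, 45.3 and 39.4 CPM in IBA against 0 and 0.566 CPM in ASPC_Pre, and Tlr4 at 2.68, 8.10 and 20.9 CPM against 0 and 22.2 CPM.

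Adipogenic induction was present in 1 batch per technique, so its values carry counting intervals and no test. In scRNA-seq batch 9_1, Tlr4 measured 33.3 CPM in ASPC_Pre (95% Poisson interval 31.0 to 35.7) and 41.2 CPM in ASPC_Post (38.2 to 44.3). In Live-seq batch 9_4 the values were 22.2 CPM (19.9 to 24.6) and 63.8 CPM (59.96 to 67.9). Both techniques gave the higher value after induction, with 36.8% of the Live-seq ASPC_Post counts from 1 cell. Cd14 went from 6.45 to 8.13 CPM in scRNA-seq and from 6.92 to 2.63 CPM in Live-seq, in opposite directions. Tlr6 went from 0.617 to 2.32 CPM in scRNA-seq and from 0.629 to 11.9 CPM in Live-seq, where 91.6% of the counts after induction came from 1 cell. Tlr2 went from 2.67 to 2.03 CPM in scRNA-seq and from 0.566 to 2.69 CPM in Live-seq. Ly96 went from 7.40 to 7.96 CPM and from 9.12 to 4.50 CPM in the same order. Myd88 (44.9 to 38.6 and 48.5 to 45.7 CPM) and Ticam1 (28.4 to 23.9 and 16.9 to 8.88 CPM) were lower after induction in both, and Tlr1, Tlr7 and Tlr9 were at 1.32 CPM or less throughout.

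IBA cells sequenced after Live-seq, all of batch 8_1, were again low in the macrophage receptors. Cd14 was 18.6 CPM (16.97 to 20.4) in cells without Live-seq, 14.4 CPM (12.9 to 16.1) 1 h after it and 15.8 CPM (13.9 to 17.9) 4 h after it. Tlr4 was 4.92 CPM (4.08 to 5.88), 1.66 CPM (1.16 to 2.30) and 4.09 CPM (3.15 to 5.21), and Tlr2 5.04, 2.49 and 5.34 CPM, both lowest at 1 h. Ticam1 was 10.9, 7.93 and 5.85 CPM and Myd88 35.1, 36.8 and 40.5 CPM at these times. Ly96 was 11.9, 10.9 and 8.68 CPM and Tlr6 1.76, 2.26 and 2.14 CPM. Tlr7 was at 0.861 CPM or less, Tlr1 had 1 count at each time, and Tlr9 had 0 counts in 162 cells. Over all 162 cells Cd14 was at 16.5 CPM (15.5 to 17.5). Of the macrophage markers, Cd68 was at 3.69 CPM, Csf1r at 2.37, Fcer1g at 0.323 and Lyz2 at 0.210 CPM. Ctss was at 0.0645 CPM and Tyrobp and Laptm5 at 0.0161 CPM each, while Ptprc, Itgam and Adgre1 had no count. Itgam and Adgre1 were low in scRNA-seq RAW_Mock itself, at 0.981 and 7.68 CPM pooled.

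Per cell, the receptors were seen in different shares. Cd14 had a count in all RAW_LPS whole cells and in all RAW_Mock whole cells but 1, and Tlr2 in all but 1 of either state. In IBA, Cd14 was counted in 61 cells (39.9%, exact 95% interval 32.1 to 48.1) and Tlr2 in 75 (49.02%, 40.9 to 57.2). In ASPC_Pre the figures were 21 of 60 (35%, 23.1 to 48.4) for Cd14 and 8 of 60 (13.3%, 5.94 to 24.6) for Tlr2. Low Cd14 was therefore spread over many stromal cells. Tlr7 was counted in 94.9% of RAW_Mock cells and in 6 IBA cells (3.92%). Tlr9 was counted in 29 RAW_Mock cells (18.5%) and in 0 IBA cells (interval up to 2.38%).

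The share of cells with a Tlr4 count was 77.1% in RAW_Mock (exact 95% interval 69.7 to 83.4) and 40.9% in RAW_LPS (61 cells, 32.96 to 49.3). It was 68.3% in ASPC_Pre (41 of 60), 80.0% in ASPC_Post (28 of 35) and 21.6% in IBA (33 cells). With each cell thinned to 50000 counts the shares of RAW_Mock and RAW_LPS were 65.4% and 31.5%, in the same order. Tlr1 went the other way, from 3 RAW_Mock cells (1.91%) to 50 RAW_LPS cells (33.6%), and from 1.92% to 20.8% in thinned cells. Tlr6 was counted in 23.6% of RAW_Mock and 45.6% of RAW_LPS cells. Median total counts were 433219 and 446191 in these states. Intervals cover counting error only, and cells of a batch are not replicates, so no p is given for them.

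The LPS receptor complex was read as the joint detection of Tlr4, Ly96 and Cd14. All 3 were counted in 52 RAW_Mock cells (33.1%), 44 RAW_LPS cells (29.5%), 14 ASPC_Pre cells (23.3%), 6 ASPC_Post cells (17.1%) and 8 IBA cells (5.23%). Thinned to 50000 counts, RAW_Mock came to 12.8%, RAW_LPS to 10.7% and ASPC_Pre to 3.33%. In both RAW states every cell with Tlr4 and Ly96 also had Cd14 (52 of 52 and 44 of 44). Nearly all RAW cells had a Cd14 count, so this was close to given in advance and shows no link between the genes. Of such ASPC_Pre cells, 14 of 26 had Cd14. Among cells with a Tlr2 count, a count of its partners Tlr1 or Tlr6 was found in 25.6% of RAW_Mock and 64.2% of RAW_LPS cells, and in 12.9% and 42.9% after thinning. Both adaptors were counted in 51 RAW_Mock (32.5%) and 85 RAW_LPS cells (57.05%), and in 90 IBA cells (58.8%). A median of 6 of the 10 genes was counted in a RAW_Mock cell, 7 in RAW_LPS, 4 in IBA and 3 in ASPC_Pre. Biopsies held fewer, with medians of 2, 4, 1 and 1.

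Across the 12 scRNA-seq sums of all states, Cd14, Tlr2, Tlr7, Tlr9 and Myd88 ran together, as a description in which sums share batches and cell types. The Pearson correlation of log2(CPM + 1) was 0.972 for Tlr7 and Cd14, 0.943 for Tlr2 and Tlr7 and 0.926 for Cd14 and Myd88, and Tlr9 had 0.862 to 0.895 with the other 4. Tlr4 was apart from all the others, with coefficients from -0.138 to 0.157, and Ly96 had 0.177 with Cd14. The genes most like Tlr7 were Dock2, Was and Arhgap30 (each 0.997), those most like Cd14 Fyb (0.989), Trem3 (0.988) and Galnt7 (0.984), and those most like Tlr2 Ets2 (0.993), Gm10499 (0.982) and H2-K2 (0.979). For Tlr4 the closest were Pax3 (0.888), Pnpla2 (0.855) and Glud1 (0.842), and for Ly96 no gene went above Selenos (0.7998).

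The rest of the pathway was covered by 14 other receptor and accessory genes and 25 adaptor and signalling genes. Between RAW_Mock and the stromal cells in scRNA-seq, 4 of the 9 tested in the first list were called higher and 2 lower, and 5 and 2 of the 25 tested in the second, against 14.5% higher and 23.7% lower over all genes. The largest rises were those of Ly86 (MD-1, partner of the TLR homologue CD180; 146.4 CPM in RAW_Mock, log2 fold change 11.78, adjusted p = 8.33e-05, edgeR), Sigirr (an inhibitory receptor; 28.2 CPM, 10.02, adjusted p = 0.000998) and Tlr13 (a receptor for bacterial ribosomal RNA; 37.6 CPM, 9.97, adjusted p = 0.00242). The IBA counts of Ly86 and Tlr13 in batch 9_1 came wholly from the cell that carried macrophage markers. Lower in macrophages were Lbp (LPS-binding protein; 10.3 CPM in ASPC_Pre, 0 in every RAW sum, adjusted p = 0.00452), Irak3 (an inhibitory kinase; 28.4 CPM in ASPC_Pre and 0.0522 in RAW_Mock, -7.95, adjusted p = 0.000575) and Tlr5 (the flagellin receptor; 2.57 CPM in ASPC_Pre, 0 in RAW, adjusted p = 0.0369). In ASPC_Post, Lbp was at 62.4 CPM and Irak3 at 104.7 CPM. In Live-seq 2 of 8 tested in the first list were called higher, Ly86 (adjusted p = 0.0211) and Unc93b1, the chaperone of endosomal receptors (385.2 CPM in RAW_Mock biopsies, adjusted p = 0.034), and 0 of 25 in the second, of which none was called lower either.

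After LPS in scRNA-seq, 0 of 7 genes of the first list were called higher and 1 lower, and 3 and 1 of 25 in the second, against 2.67% and 1.7% over all genes. Those that rose were Ikbke (a kinase of the TRIF arm; from a mean of 47.7 to 357.1 CPM, log2 fold change 3.10, adjusted p = 0.00859, edgeR), Irak2 (a kinase of the MyD88 complex; 54.995 to 170.99 CPM, 1.80, adjusted p = 0.0139) and Peli1 (a ubiquitin ligase; 52.5 to 168.8 CPM, 1.76, adjusted p = 0.029). Those that fell were Tlr13 (37.6 to 4.22 CPM, -3.07, adjusted p = 0.0179) and Sigirr (28.2 to 7.11 CPM, -1.94, adjusted p = 0.0374). In Live-seq none of 7 and 22 tested genes of these lists was called. Between IBA and ASPC_Pre the first list had no call among 9 tested, and in the second Irf5 was higher in IBA (3.78, adjusted p = 0.00621, edgeR) and Irf7, Tollip and Traf3 were lower (adjusted p of 0.0182, 0.00203 and 0.0419).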

How the data were processed

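Single-cell libraries were sequenced by the authors, and read 1 was aligned with STAR 2.6.1c to mm10/GRCm38. Uniquely mapped reads were counted per gene with HTSeq without regard to strand against Ensembl 87. The deposited values are raw counts, and 30322 of 30452 gene IDs were matched to symbols.

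Before summing, the 20 genes of the study's negative controls and 90 genes of ribosomal proteins were dropped (a median of 24.1% of counts in Live-seq and 24.7% in scRNA-seq). Cells were summed by batch and state where at least 3 were present. Genes needed 2 counts in 15% of the cells of 1 scRNA-seq state, for the Live-seq fits as well. They also had to pass edgeR's filterByExpr (minimum count 2, minimum proportion 0.05). A gene could thus pass through the state in which it is high. Sums were fitted with edgeR 4.0.16 (R 4.3.3, TMM, quasi-likelihood test, prior count 0.125). P-values were adjusted by Benjamini-Hochberg over all genes tested. Batch was a term in every main fit except that of biopsies against whole cells. The main fits for macrophages against stromal cells and IBA against ASPC_Pre held the sums of all states of the technique. Those for LPS against mock held RAW sums only. A call needed an adjusted p under 0.05 and an absolute log2 fold change over 1. DESeq2 1.42.0 was one of the alternatives. The fit was tested on simulated data for macrophages against stromal cells and LPS against mock. Every gene was simulated at the common dispersion of the fit, with log2 changes of 2 or 4 in size. Most changed genes were recovered at the dispersion of scRNA-seq and none at that of Live-seq. The measured Live-seq data did give calls for macrophages against stromal cells, so the simulation does not set the limit for each gene. Intervals are exact 95% intervals and cover counting error only, Poisson for CPM and binomial for shares of cells. The floor for a count of 0 is 3 counts, set against values pooled over the cells of a state. Files hold no molecular identifiers, and amplified copies of a molecule can count more than once. Poisson intervals and the floor are therefore in reads and can understate the error in molecules. Tables were handled in Python 3.11.15 with pandas 2.3.3 and scipy 1.17.1.

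Batch pairs the sums because the labels give RAW_Mock and RAW_LPS cells of the same batch. Deviations of these sums from their state means correlated at 0.291 (8_8), 0.465 (9_1) and 0.528 (scRNA) for whole cells. For biopsies the coefficients were 0.182 (6), 0.0714 (7), 0.0315 (8_8) and 0.0961 (9_4). The 10 genes and the other lists were chosen with earlier results of these data known. All 10 genes are given in every comparison that tested them, those between techniques partly as a range. Of the other pathway genes, those called with the largest rises and falls, at most 3 each way, are named. Of similar genes, those with the highest correlation are named. The fit without the IBA cell that carries macrophage markers was chosen after seeing the data. The wild-type RAW_Mock sum of 1 cell was not used.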

Additional observations from a re-analysis of the deposited data

Results flagged for a closer look

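In 5 of 19 groups of 4 or 5 Live-seq sums, 1 sum lay far from the others by Dixon's criterion. Its rate of about 1 in 20 groups holds for normally distributed values, which these sparse counts are not. A group with only 1 sum above 0 always meets the criterion, so the number flagged cannot be set against chance. Tlr4 in RAW_Mock was 286.6 CPM in batch 7, against 49.7 CPM in the next sum. It came from 2298 counts in 6 of 20 cells. Tlr1 in RAW_LPS was 25.8 CPM in batch 5Reseq, against 3.11 CPM in the next, from 134 counts in 4 of 11 cells. Tlr6 in RAW_LPS was 8.47 CPM in the same batch, against 0.403 CPM, and all 44 counts came from 1 cell. Tlr6 in RAW_Mock was 15.2 CPM in batch 8_8, against 0.448 CPM, from 7 of 63 cells. Tlr9 in RAW_Mock was 2.38 CPM in batch 8_8, with 65.1% of its 43 counts in 1 cell, and 0 in the others.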

How the results depend on the processing

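Among the values of the 10 genes under all alternatives, 24 lost a call, 17 gained one and 44 changed sign; the cause was not tested. No sign changed for macrophages against stromal cells or LPS against mock in scRNA-seq. In Live-seq many values rest on counts held by single cells.

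Calls are given as a percent of genes tested. Between macrophages and stromal cells in Live-seq they came to 2.88%, against 13.4% with DESeq2, 7.73% with the edgeR 4 fit, 6.91% in thinned cells, 6.31% without the replicate block and 0.179% (without batch 8_8) to 3.77% with a batch left out, with 0.537% without 9_4 and 1.55% without 7. After LPS in scRNA-seq they came to 4.37%, against 9.62%, 7.85%, 7.72% and 0.839% in the same order, 1.28% with all 5 states, and 0.502% (without 9_1) to 8.37% (without 8_8), with 2.03% without scRNA. After LPS in Live-seq they came to 0, against 2.57% with DESeq2 and 0.0103% without the replicate block. Between IBA and ASPC_Pre they came to 10.9%, against 19.6% with the edgeR 4 fit, 7.14% without the replicate block and 0.322% (without 9_1) to 11.3%, with 3.24% without scRNA. For the difference of LPS effects DESeq2 called 0.554% against 0. For technique, DESeq2 called 0.840%, the edgeR 4 fit 0.00866% and no filter 1.10% against 0.

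Sign changes are given as log2 fold changes. Macrophages against stromal cells in Live-seq: Ly96 was -0.16 with the edgeR 4 fit, -1.32 without the replicate block and -1.13 to 4.84 with a batch left out, Tlr6 -1.17 to 4.96 and Tlr9 -0.92 to 5.88. LPS in Live-seq: Tlr7 was 0.49 with the edgeR 4 fit, 1.12 without the replicate block, 0.72 with all states and -1.05 to 0.93 with a batch left out, Myd88 0.14 without the replicate block and -0.82 to 0.78, and Ly96 -0.19 to 2.52. IBA against ASPC_Pre: Ly96 was 0.055 with the edgeR 4 fit, 0.053 in thinned cells and -0.77 to 0.43 with a batch left out, Tlr1 4.02 in thinned cells and Tlr9 -4.03 to 1.05.

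For the difference of LPS effects, Ly96 was 0.011 with DESeq2 size factors, 0.43 with the edgeR 4 fit, 0.95 without the replicate block and -1.29 to 1.72 with a batch left out. Tlr1 was 0.32 with the edgeR 4 fit, 4.06 without the replicate block and -2.47 to 0.77, Tlr7 0.23, 0.78 and -1.35 to 0.66. Without the replicate block Cd14 was 0.22 (-0.68 to 0.30 with a batch left out) and Tlr2 -0.096 (-0.12 to 0.46), and Tlr9 ran from -1.43 to 7.95. For technique with a replicate block for batch 8_8, Ticam1 was 1.67, Tlr4 -0.28 and Tlr6 1.13. With a batch left out, Tlr4 ran from -0.17 to 1.07, Myd88 from -0.15 to 0.096, Ticam1 from -1.95 to 0.021 and Tlr1 from -3.59 to 0.86.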
